A study of Homo sapiens with 9 samples.

Results

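The genes described here are 10 members of the Wnt pathway, chosen as named genes of the pathway, with no threshold on their values but with earlier results of these data known: the ligand genes WNT5A, WNT5B, WNT7A and WNT7B, and DKK1, RNF43, ZNRF3, AXIN2, LEF1 and TCF7. All 10 had a row of their own among the 27548 rows of the gene table. The libraries, 3 in each of 3 groups, were sequenced from RNA of MDA-MB-231, a long-established human cell line of triple-negative breast cancer. TLX+siTLX were cells overexpressing TLX that received an siRNA against TLX (S7 to S9). TLX+siCTL were cells overexpressing TLX that received a negative control siRNA (S4 to S6). CTL+siCTL were control cells with the same negative control siRNA (S1 to S3). All cells were transfected for 48 h with DharmaFECT 4. TLX is the orphan nuclear receptor encoded by NR2E1. The titles of the CTL+siCTL samples include PC3, which the labels leave unexplained and which names a prostate cancer line as well. How TLX was overexpressed, and whether the lines are clones, is stated nowhere in the sources used here. No label says that replicates came from separate cultures. The p-values therefore measure only the spread between these libraries, and that spread may be technical.

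Wnt proteins are lipid-modified secreted ligands that bind Frizzled receptors. In the canonical branch, with LRP5 or LRP6 as co-receptor, they stop a cytoplasmic complex built on axin and APC from marking beta-catenin for destruction, and beta-catenin then acts with TCF and LEF proteins at target genes. Several target genes feed back on the pathway: DKK1 blocks the LRP co-receptors, AXIN2 rebuilds the destruction complex, and the membrane E3 ubiquitin ligases RNF43 and ZNRF3 remove Frizzled receptors from the cell surface. In triple-negative breast cancer lines WNT5A and WNT5B are known mainly as ligands of non-canonical signalling. In mouse neural stem cells Wnt7a has been described as a target of TLX.

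NR2E1 was measured at log2 CPM of -2.61, -3.40 and -1.77 in TLX+siTLX, 0.28, -0.84 and 0.23 in TLX+siCTL, and -4.59, -4.28 and -4.50 in CTL+siCTL, where log2 CPM is the authors' deposited log2 of CPM, counts scaled to library size, with a prior count added. The groups did not overlap. NR2E1 rested on few reads. Those rebuilt from the deposited values, which are estimates, summed to 40.0 in TLX+siTLX, 242.2 in TLX+siCTL and 4.79 in CTL+siCTL. Recovered effective library sizes were 73.7 to 91.7 M reads, and 18.4% to 20.1% of a library's rows were at 0 reads. Pairs of libraries within a group had a chi-square statistic per gene between 9.59 and 58.6, and the highest value was that of S7 with S9. All pairs of TLX+siTLX, at 25.1, 58.6 and 34.0, lay above every pair of the other groups, which reached 16.0 at most. Of the basal B breast markers VIM (10.0 to 10.8) and CD44 (9.44 to 10.3) were high in all 9 libraries, and KRT5 was not on a row. Of the 7 basal B markers on a row, 6 averaged a log2 CPM of 0 or more. The same held for 5 of the 8 luminal breast markers. Of the prostate markers KLK3 lay between -5.33 and -3.59 in all libraries, while SLC45A3 lay between 3.15 and 3.56.

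The members took different courses over the 3 groups. DKK1 rose in TLX+siCTL and stood higher still in TLX+siTLX, while WNT7B and RNF43 fell in TLX+siCTL and were higher in TLX+siTLX than in either other group. WNT5A fell 8.44-fold in TLX+siCTL on the deposited scale and stayed low in TLX+siTLX. WNT5B and ZNRF3 were modestly higher in both TLX-overexpressing groups. AXIN2 was higher in TLX+siTLX than in CTL+siCTL. LEF1 was lower in TLX+siCTL than in CTL+siCTL, a call lost in most alternative runs that left out a library. WNT7A and TCF7 passed the test in none of the 3 comparisons. The moderated F test over the 3 groups, run with limma, called 7 of the 10 members at an adjusted p under 0.05, against 40.7% of all rows. All rows include many with few reads, whereas 8 of the 10 members averaged a log2 CPM of 0 or more. No F-test share is given for rows at the members' levels, so an excess of calls among the members cannot be read from these values.

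**Figure D1:**
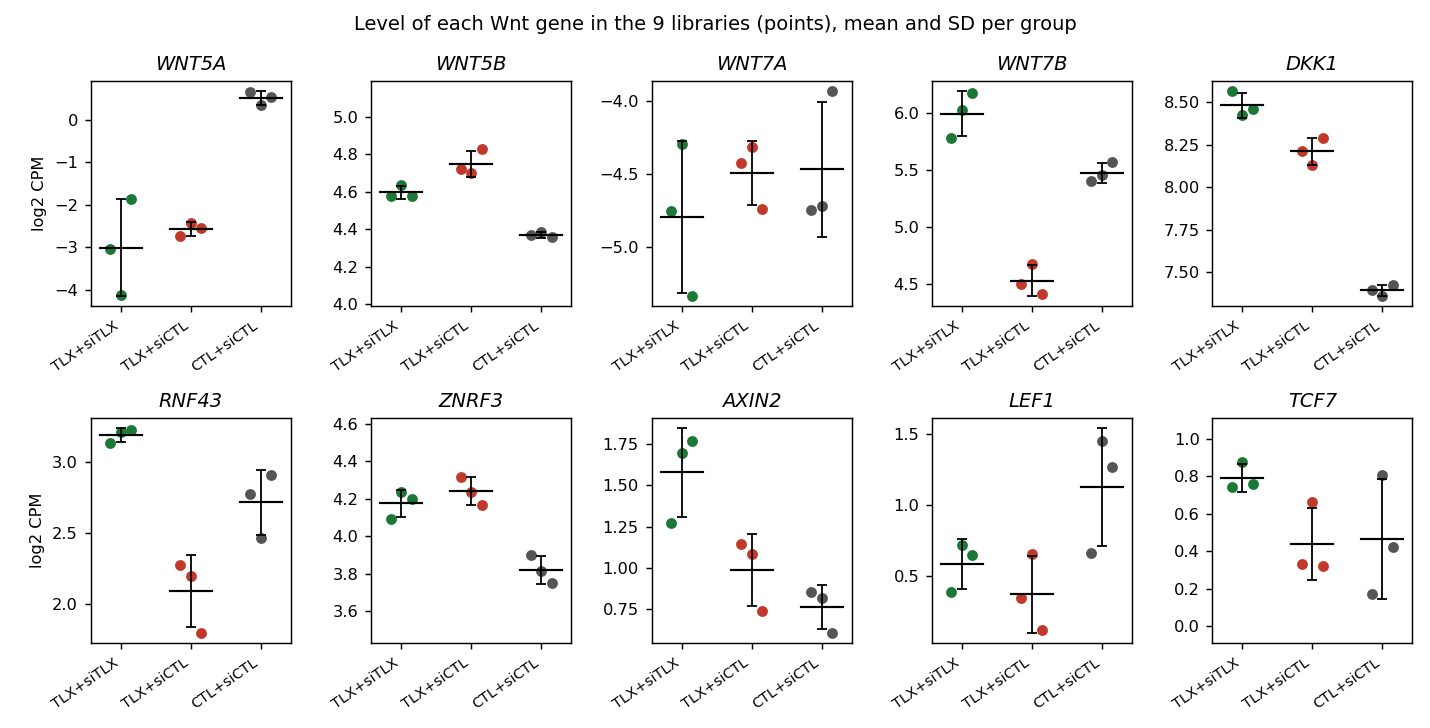
Log2 CPM of each of the 10 members in every library, with the groups TLX+siTLX, TLX+siCTL and CTL+siCTL from left to right; points are libraries and bars the group means. DKK1 steps downward from left to right with no overlap between groups, WNT7B and RNF43 are lowest in TLX+siCTL, and WNT5A is high in CTL+siCTL only.

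Promoter windows of RefSeq (GRCh38.p14) were at hand for 7 of the 10 members, with 11 windows of 250 bases before an annotated start. WNT7B, AXIN2 and ZNRF3 had no entry. They were searched on both strands for the TCF/LEF core, spelled CTTTG and then either base A or base T at each of the next 2 positions, and for the TLX half-site AAGTCA, and no matches overlapped. A TCF/LEF core was found in 2 of the 11 windows, those of DKK1 and of a downstream start of TCF7, and in 12.0% of 35116 promoters of the same length. The TLX half-site was found in 1 window, of a downstream start of WNT5B, and in 10.9% of all promoters. A match describes letters in a window, not a bound site. The windows of DKK1 and WNT5B are shown for their matches, in capitals, and that of RNF43 for a member that changed in all 3 comparisons with no match. Bases inside an annotated exon on the same strand are left out. The windows lie at chr10:52314031-52314280 on the plus strand for DKK1, chr12:1628981-1629196 on the plus strand for WNT5B, and chr17:58417596-58417784 on the minus strand for RNF43, each printed 5′ to 3′ on the gene's strand.
DKK1: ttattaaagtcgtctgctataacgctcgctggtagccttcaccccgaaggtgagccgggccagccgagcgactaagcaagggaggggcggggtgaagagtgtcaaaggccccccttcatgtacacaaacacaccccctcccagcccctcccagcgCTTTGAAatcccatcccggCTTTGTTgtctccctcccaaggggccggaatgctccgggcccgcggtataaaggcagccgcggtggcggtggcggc
WNT5B: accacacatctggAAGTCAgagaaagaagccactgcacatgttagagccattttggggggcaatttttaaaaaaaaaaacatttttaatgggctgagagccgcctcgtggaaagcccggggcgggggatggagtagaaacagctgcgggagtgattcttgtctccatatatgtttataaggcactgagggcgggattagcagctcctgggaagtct
RNF43: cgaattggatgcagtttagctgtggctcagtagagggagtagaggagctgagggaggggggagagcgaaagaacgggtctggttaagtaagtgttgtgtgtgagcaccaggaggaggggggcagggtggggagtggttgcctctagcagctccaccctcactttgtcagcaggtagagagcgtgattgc
In DKK1 the matches lay 95 to 89 and 76 to 70 bases before the start. In WNT5B the match lay 237 to 232 bases before a start inside the gene, which begins at 1529891. The other WNT5B window, at chr12:1616806-1617055, had no match.

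Among the ligands, WNT5A (ENSG00000114251, chromosome 3, 55465715 to 55490539, minus strand, GRCh38 with GENCODE 29) had log2 CPM of -3.03, -4.13 and -1.86 in TLX+siTLX, -2.73, -2.41 and -2.55 in TLX+siCTL, and 0.66, 0.34 and 0.53 in CTL+siCTL. All 6 TLX-overexpressing libraries lay below all 3 control libraries, and the TLX+siTLX libraries were spread on both sides of TLX+siCTL. The log2 fold change was -3.08 ± 0.50 (SE) in TLX+siCTL against CTL+siCTL (adjusted p = 0.00153, limma) and -3.52 ± 0.50 in TLX+siTLX against CTL+siCTL (adjusted p = 0.000555). In bulk RNA, fewer cells expressing a gene and less of its RNA per cell cannot be told apart. WNT5A was carried by few reads in the TLX-overexpressing cells. The reads rebuilt from the deposited values, which are estimates, came to 7.95, 2.48 and 21.8 in TLX+siTLX, 11.6, 12.8 and 11.6 in TLX+siCTL, and 125.7, 94.5 and 104.8 in CTL+siCTL. The ratio of the summed reads per library size was 0.102 (exact 95% binomial interval 0.0704 to 0.145, counting error only) in TLX+siCTL over CTL+siCTL and 0.0927 (0.0624 to 0.134) in TLX+siTLX over CTL+siCTL.

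Between TLX+siTLX and TLX+siCTL, WNT5A differed by -0.44 ± 0.50 (95% interval -1.59 to 0.71, adjusted p = 0.612, limma), so this difference did not exceed the spread between libraries. The read ratio was 0.906 (0.545 to 1.501). It was 1.24 (0.736 to 2.07) without S8 and 0.439 (0.194 to 0.903) without S9, so single libraries set its direction. On log2(CPM + 1) the WNT5A change was -1.05 in TLX+siCTL and -1.08 in TLX+siTLX, each against CTL+siCTL, and both calls held. A larger constant shrinks the change of a gene with few reads.

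WNT5B (ENSG00000111186, chromosome 12, 1529891 to 1647243, plus strand), a close relative of WNT5A, had log2 CPM of 4.58, 4.64 and 4.57 in TLX+siTLX, 4.72, 4.70 and 4.82 in TLX+siCTL, and 4.37, 4.39 and 4.36 in CTL+siCTL. The 3 groups did not overlap, with TLX+siTLX between the others. Relative to CTL+siCTL it was higher by 0.38 ± 0.04 in TLX+siCTL (adjusted p = 0.000222, limma) and by 0.23 ± 0.04 in TLX+siTLX (adjusted p = 0.00367). Against TLX+siCTL, it fell in TLX+siTLX by 0.15 on the log2 scale (SE 0.04, adjusted p = 0.0378, limma). That call was lost without the intensity trend (adjusted p = 0.0998), with only the 6 libraries of the comparison (0.0730), and without S6 (0.0648), S7 (0.0710) or S9 (0.0687), and the authors' deposited table gives it a false discovery rate of 0.0631. FBXL14 overlaps WNT5B on the other strand, with a mean log2 CPM of 3.14. It differed by -0.29 in TLX+siCTL and -0.45 in TLX+siTLX, each against CTL+siCTL, and by -0.16 between TLX+siTLX and TLX+siCTL. Whether reads were shared with WNT5B was not tested.

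WNT7A (ENSG00000154764, chromosome 3, 13816258 to 13880121, minus strand) was near the floor of the table, with log2 CPM of -4.75, -4.30 and -5.33 in TLX+siTLX, -4.42, -4.31 and -4.74 in TLX+siCTL, and -4.75, -4.72 and -3.93 in CTL+siCTL. The lowest possible value was -5.33, and the rebuilt reads summed to 2.998, 4.998 and 4.995 over these groups in that order. All 3 groups overlapped, and no fold is given at such counts. The smallest adjusted p among the 3 comparisons was 0.497 (limma), and a difference was not detectable at this depth.

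WNT7B (ENSG00000188064, chromosome 22, 45920362 to 45977129, minus strand), a ligand of the canonical branch, had log2 CPM of 5.78, 6.03 and 6.18 in TLX+siTLX, 4.50, 4.68 and 4.42 in TLX+siCTL, and 5.40, 5.46 and 5.58 in CTL+siCTL. The groups did not overlap: TLX+siCTL was lowest and TLX+siTLX highest. WNT7B fell 1.93-fold in TLX+siCTL against CTL+siCTL (log2 fold change -0.95 ± 0.10, adjusted p = 0.00015, limma). It rose 2.76-fold in TLX+siTLX against TLX+siCTL (1.46 ± 0.10, adjusted p = 2.9e-05) and was 1.43-fold higher in TLX+siTLX than in CTL+siCTL (0.52 ± 0.10, adjusted p = 0.00429). All 3 calls held in every alternative run.

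Of the 19 Wnt ligand genes listed, 18 were on a row, WNT3A not, and 11 lay under a log2 CPM of 0 in all 9 libraries. Per kilobase of transcript, so that genes can be compared, the mean log2 level of WNT7B was 4.83 in TLX+siTLX, 3.37 in TLX+siCTL and 4.32 in CTL+siCTL. That of WNT5B was 3.74, 3.89 and 3.51 in the same groups. The next ligand, WNT9A, had 1.33, 0.94 and 1.60. The order of the leading pair differed between groups. The per-kilobase level of WNT7B minus that of WNT5B was 0.90, 1.09 and 1.29 in TLX+siTLX, -0.53, -0.33 and -0.72 in TLX+siCTL, and 0.73, 0.77 and 0.91 in CTL+siCTL. WNT7B thus led in the 6 libraries of TLX+siTLX and CTL+siCTL and WNT5B in all 3 of TLX+siCTL. This order is a description of levels and rests on annotated transcript lengths.

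**Figure D2:**
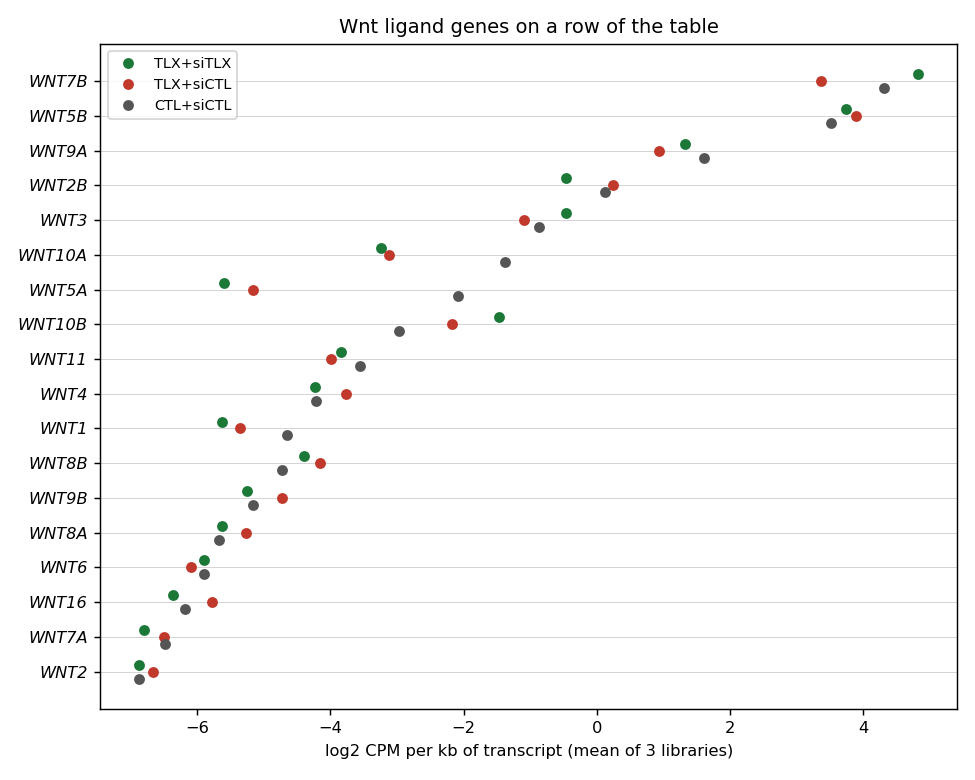
Mean log2 CPM per kilobase of transcript of the Wnt ligand genes in TLX+siTLX, TLX+siCTL and CTL+siCTL; points are group means of 3 libraries. WNT7B (4.83, 3.37 and 4.32) and WNT5B (3.74, 3.89 and 3.51) lie above all other ligands in each group.

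DKK1 (ENSG00000107984, chromosome 10, 52314296 to 52318042, plus strand), the secreted antagonist, had the highest level of the members per kilobase of transcript. Its log2 CPM was 8.57, 8.42 and 8.46 in TLX+siTLX, 8.21, 8.13 and 8.29 in TLX+siCTL, and 7.39, 7.36 and 7.43 in CTL+siCTL. The groups did not overlap and lay in this order from highest to lowest. DKK1 rose 1.77-fold in TLX+siCTL against CTL+siCTL (log2 fold change 0.82 ± 0.05, adjusted p = 6.82e-06, limma) and 2.13-fold in TLX+siTLX against CTL+siCTL (1.09 ± 0.05, adjusted p = 8.43e-07). In TLX+siTLX against TLX+siCTL, where NR2E1 was lower, it rose by a further 0.27 ± 0.05 (adjusted p = 0.00513). All 3 calls held in every alternative run.

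The homologous E3 ligases differed in course. RNF43 (ENSG00000108375, chromosome 17, 58352500 to 58417595, minus strand) had log2 CPM of 3.13, 3.21 and 3.23 in TLX+siTLX, 2.28, 2.20 and 1.80 in TLX+siCTL, and 2.78, 2.47 and 2.91 in CTL+siCTL. The groups did not overlap, with TLX+siCTL lowest and TLX+siTLX highest, the order seen for WNT7B. RNF43 rose 2.14-fold in TLX+siTLX against TLX+siCTL (1.10 ± 0.15, adjusted p = 0.000807, limma), a call that held in every alternative run. It fell 1.54-fold in TLX+siCTL against CTL+siCTL (-0.63 ± 0.15, adjusted p = 0.0108), a call lost with only those 6 libraries (adjusted p = 0.0566) and without S1 (0.0552) or S3 (0.0528). RNF43 was also 0.47 ± 0.15 higher in TLX+siTLX than in the controls (adjusted p = 0.0356), a call lost without the intensity trend (0.0548) and without S1 (0.0857), S2 (0.129), S5 (0.0619), S7 (0.0793), S8 (0.108) or S9 (0.111). AC004687.2 spans RNF43 on the same strand. Its row had a mean log2 CPM of -0.49 and differences of -0.60 in TLX+siTLX against TLX+siCTL and 0.77 in TLX+siCTL against CTL+siCTL, opposite in sign to RNF43, and of 0.17 in TLX+siTLX against CTL+siCTL, the same sign. SUPT4H1 overlaps one end of RNF43 on that strand, with a mean of 5.95 and differences of -0.15, 0.13 and -0.02 in the same order. No test of either row is given, and the split of reads between these rows and RNF43 is uncertain.

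ZNRF3 (ENSG00000183579, chromosome 22, 28883592 to 29057487, plus strand) had log2 CPM of 4.09, 4.24 and 4.20 in TLX+siTLX, 4.32, 4.23 and 4.17 in TLX+siCTL, and 3.90, 3.81 and 3.75 in CTL+siCTL. Both TLX-overexpressing groups lay above the controls and overlapped each other. Relative to CTL+siCTL, ZNRF3 rose by 0.42 ± 0.06 in TLX+siCTL (adjusted p = 0.000874, limma) and by 0.35 ± 0.06 in TLX+siTLX (adjusted p = 0.00192). Between TLX+siTLX and TLX+siCTL the difference was -0.07 ± 0.06 (95% interval -0.21 to 0.08, adjusted p = 0.534).

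AXIN2 (ENSG00000168646, chromosome 17, 65528563 to 65561647, minus strand), a scaffold of the destruction complex often used as a readout of beta-catenin activity, had log2 CPM of 1.27, 1.69 and 1.77 in TLX+siTLX, 1.14, 1.08 and 0.74 in TLX+siCTL, and 0.86, 0.82 and 0.61 in CTL+siCTL. TLX+siTLX lay above all other libraries, while TLX+siCTL and CTL+siCTL overlapped. AXIN2 was 1.76-fold higher in TLX+siTLX than in CTL+siCTL (0.82 ± 0.18, adjusted p = 0.00595, limma), and this call held in every alternative run. Its level was 0.59 ± 0.18 higher in TLX+siTLX than in TLX+siCTL (adjusted p = 0.0408), close to the threshold. That call was lost with equal library medians (0.0505), quantile normalization (0.111), only the 6 libraries (0.104), and without any single library other than S7, with adjusted p from 0.0556 to 0.128. In TLX+siCTL against CTL+siCTL the difference was 0.23 ± 0.18 (95% interval -0.18 to 0.63, adjusted p = 0.421). AC004805.1 overlaps AXIN2 on the same strand and was not on a row.

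LEF1 and TCF7 encode DNA-binding partners of beta-catenin. LEF1 (ENSG00000138795, chromosome 4, 108047545 to 108168956, minus strand) had log2 CPM of 0.39, 0.72 and 0.65 in TLX+siTLX, 0.35, 0.66 and 0.12 in TLX+siCTL, and 0.66, 1.45 and 1.27 in CTL+siCTL. S1 (0.662) lay far below the other controls and only just above S5 (0.657), the highest TLX+siCTL library, so these groups were apart by a narrow margin. LEF1 fell by 0.75 on the log2 scale in TLX+siCTL against CTL+siCTL (SE 0.24, adjusted p = 0.0405, limma). The call was lost under quantile normalization (0.0639), with only the 6 libraries (0.101), and without S2, S3, S4, S6, S7, S8 or S9 (0.0567 to 0.143). The LEF1 difference in TLX+siTLX against CTL+siCTL was -0.54 ± 0.24 (adjusted p = 0.118), and without S1 it was -0.78 (adjusted p = 0.0249). Between TLX+siTLX and TLX+siCTL it was 0.21 ± 0.24 (95% interval -0.33 to 0.75, adjusted p = 0.602).

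TCF7 (ENSG00000081059, chromosome 5, 134114711 to 134151865, plus strand) had log2 CPM of 0.74, 0.88 and 0.76 in TLX+siTLX, 0.33, 0.66 and 0.32 in TLX+siCTL, and 0.17, 0.81 and 0.42 in CTL+siCTL. TLX+siTLX lay above TLX+siCTL without overlap and overlapped CTL+siCTL. The differences were 0.35 ± 0.19 in TLX+siTLX against TLX+siCTL (95% interval -0.08 to 0.79, adjusted p = 0.254, limma), 0.32 ± 0.19 in TLX+siTLX against CTL+siCTL (-0.11 to 0.76, adjusted p = 0.256) and -0.03 ± 0.19 in TLX+siCTL against CTL+siCTL (-0.47 to 0.41, adjusted p = 0.972). For both LEF1 and TCF7, S2, S5 and S8 were the highest libraries of their groups. SKP1 overlaps TCF7 on the other strand, with a mean log2 CPM of 7.83. Its differences were -0.02 in TLX+siTLX against TLX+siCTL, 0.34 in TLX+siTLX against CTL+siCTL and 0.36 in TLX+siCTL against CTL+siCTL. Whether reads were shared with TCF7 was not tested.

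**Figure D3:**
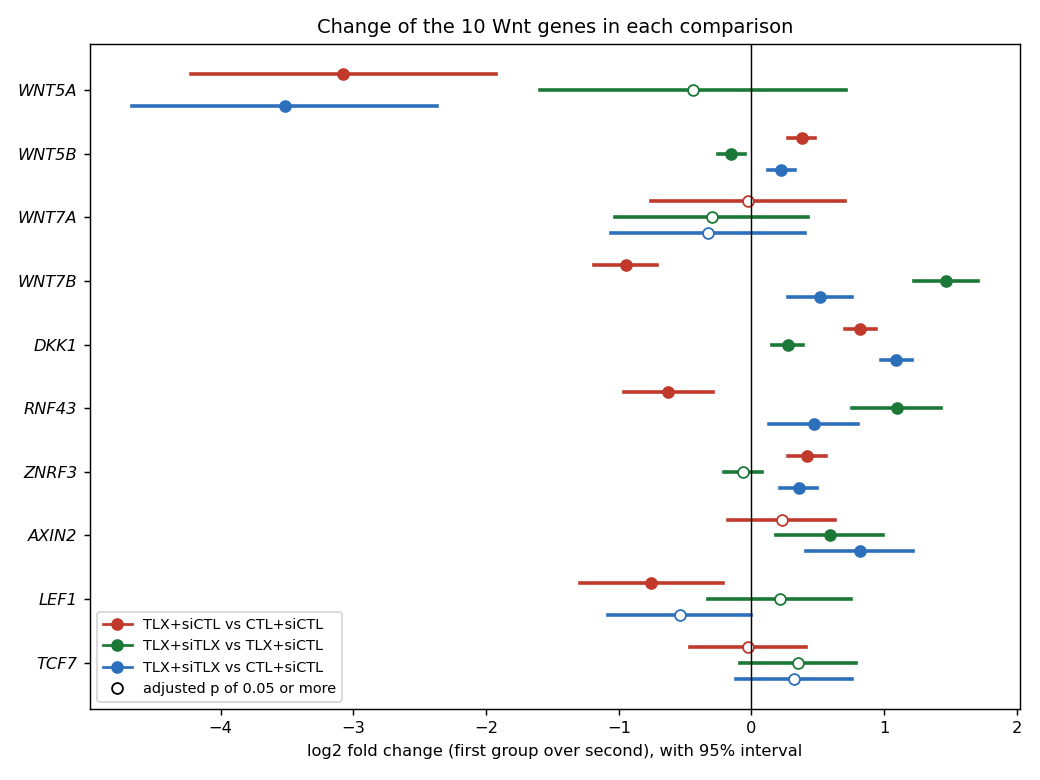
Log2 fold change of each member with its 95% interval in the 3 comparisons, first group minus second; filled points have an adjusted p under 0.05 in limma and open points do not. WNT7B and RNF43 lie below 0 in TLX+siCTL against CTL+siCTL and above 0 in TLX+siTLX against TLX+siCTL, and DKK1 lies above 0 in all 3.

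The first comparison asked how TLX-overexpressing cells differ from control cells under the control siRNA. How the lines were made is not stated. In any comparison with CTL+siCTL, TLX and other differences between the lines therefore cannot be told apart. In TLX+siCTL against CTL+siCTL 3 members rose (WNT5B, DKK1 and ZNRF3) and 4 fell (WNT5A, WNT7B, LEF1 and RNF43), so 7 of 10 were called, against 30.1% of all 27548 rows and 56.6% of rows whose mean log2 CPM was 1 or more. Over all rows 15.0% rose and 15.1% fell. For 7 members the groups did not overlap, against 41.4% of all rows, a background not restricted by level. The median log2 fold change was -0.03 over the members and 0 over all rows. Over the 106 other listed pathway genes with a row, 16 rose and 28 fell, or 41.5%. Of the 17 Wnt receptors and co-receptors with a row 4 rose and 9 fell (median -0.23), among them FZD5 at -0.97 ± 0.08 (adjusted p = 2.24e-05, limma). None of the 6 R-spondin and LGR genes rose and 3 fell, including LGR4, an R-spondin receptor, at -0.94 ± 0.12 (adjusted p = 0.000321). Of the 18 genes of the non-canonical relay 2 rose and 7 fell (median -0.30), and the planar polarity cadherins moved apart, with CELSR2 at 0.59 ± 0.07 and CELSR1 at -1.79 ± 0.13.

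Of the 18 reported beta-catenin target and feedback genes, 6 rose and 5 fell in TLX+siCTL against CTL+siCTL (median 0.03), a list that holds members too. The 5 falls became 2 without S3 or with only the 6 libraries, and 3 without S2 or S4. The largest rise was that of CCND1, cyclin D1, at 0.99 ± 0.05 (adjusted p = 3.2e-06, limma), and the largest fall outside the members among the genes named by rule was that of TNFRSF19, a receptor of the TNF family, at -1.24 ± 0.16 (adjusted p = 0.000401). LGR5, too low on average to be named by that rule, fell by more, at -1.94 ± 0.42 (adjusted p = 0.00697, limma). SP5, a direct beta-catenin target, was 0.50 ± 0.16 higher (adjusted p = 0.0437), a call lost on log2(CPM + 1), with only the 6 libraries, and without S1, S2, S4, S5, S6 or S8 (adjusted p up to 0.138). The formin gene DAAM2, a Dishevelled-associated activator, had the largest fall among listed genes outside the members that averaged a log2 CPM of 0 or more, at -2.68 ± 0.30 (adjusted p = 0.000147). The pseudokinase receptor gene PTK7 fell by 0.87 on the log2 scale. WLS, the carrier that exports Wnt proteins, rose by 0.49 ± 0.05, RECK, a co-receptor for WNT7 ligands, by 0.49 ± 0.08, and AMER1, a binding partner of APC, by 0.56 ± 0.06. Of the 18 genes in the destruction complex list 1 rose and 2 fell (median -0.01), and the beta-catenin gene CTNNB1 differed by -0.01 ± 0.05 (adjusted p = 0.930).

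The second comparison asked what the TLX siRNA does in the overexpressing cells. It shares the TLX+siCTL libraries with the first, so their fold changes are not independent. No control cells received the TLX siRNA, so other effects of this siRNA and the lowering of TLX cannot be told apart. In TLX+siTLX against TLX+siCTL 4 members rose (WNT7B, DKK1, AXIN2 and RNF43) and WNT5B fell, so 5 of 10 were called, against 23.7% of all rows and 45.8% of rows whose mean log2 CPM was 1 or more. Over all rows 12.7% rose and 10.9% fell. For 6 members the groups did not overlap, against 33.9% of all rows, again not restricted by level. Only 3 members (WNT7B, DKK1 and RNF43) were called with only the 6 libraries of the comparison, or without S6 or without S9. The members' median was 0.24, against 0 over all rows. Of the 106 other pathway genes 26 rose and 12 fell, or 35.8%. In the target and feedback list, members included, 7 rose and none fell (median 0.31), and in the non-canonical relay 8 rose and none fell (median 0.19). The 7 rises became 5 without S1, S4, S5, S6, S8 or S9. They became 6 on log2(CPM + 1), under both other scalings, with only the 6 libraries, and without S2 or S3. The 8 relay rises became 6 with only the 6 libraries, and 7 on log2(CPM + 1) and without S5, S6 or S8. ROR1 and PTK7, among the relay's rises, are on the receptor list too.

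Several receptor-side genes moved in TLX+siTLX against TLX+siCTL, with 7 of 17 receptors rising and 3 falling (median 0.04). RECK rose by 1.14 ± 0.08 (adjusted p = 2.85e-05, limma) and LGR4 by 0.87 ± 0.12 (adjusted p = 0.000866), while FZD3, FZD8 and FZD7 fell by 0.77, 0.61 and 0.34 on the log2 scale. Of the polarity genes, PRICKLE1 rose by 1.32 ± 0.16, PRICKLE2 by 0.85 ± 0.06 and DAAM1 by 0.82 ± 0.09. DAAM2 rose by 1.33 ± 0.30 (adjusted p = 0.0107), a call lost on log2(CPM + 1) and without S6 (adjusted p up to 0.0717). The ligand gene WNT2B fell by 0.70 on the log2 scale (SE 0.14, adjusted p = 0.00744). In the destruction complex list 3 of 18 rose and 7 fell (median -0.10). With equal library medians 0 rose and 9 fell, and with quantile normalization 0 rose and 6 fell. The rises were also 0 without S4 or S5 and 1 without S1, S2, S3, S8 or S9. CTNNB1 fell by 0.39 on the log2 scale (SE 0.05, adjusted p = 0.000504), with log2 CPM of 7.97, 8.03 and 8.16 in TLX+siTLX against 8.42, 8.47 and 8.45 in TLX+siCTL, and FBXW11, a subunit that recognises phosphorylated beta-catenin, fell by 0.47 (SE 0.07, adjusted p = 0.00106).

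The third comparison set the siRNA-treated overexpressing cells against the controls and shares libraries with both others. In TLX+siTLX against CTL+siCTL 6 members rose (WNT5B, WNT7B, DKK1, AXIN2, RNF43 and ZNRF3) and WNT5A fell, so 7 of 10 were called, against 34.6% of all rows and 63.6% of rows whose mean log2 CPM was 1 or more. Over all rows 17.7% rose and 17.0% fell. For 7 members the groups did not overlap, against 42.2% of all rows, again not restricted by level. The members' median was 0.34, against 0 over all rows. NR2E1 was still 1.86 ± 0.47 higher here (adjusted p = 0.0134, limma), a difference that rests on few reads. Of the 106 other pathway genes 28 rose and 25 fell, or 50.0%. In the target and feedback list, members such as DKK1 included, 8 of 18 rose and 1 fell (median 0.34), so this count is not separate from that of the members. Among its other genes CCND1 was at 1.44 ± 0.05, SP5 at 0.78 ± 0.16 and TNFRSF19 at -0.49 ± 0.16 (adjusted p = 0.0461, limma). The TNFRSF19 call was lost with equal library medians and without S1, S2, S3, S6, S7 or S8 (adjusted p up to 0.113). In the destruction complex list 3 of 18 rose and 10 fell (median -0.18), with AMER1 at 0.77 ± 0.06 and CTNNB1 at -0.40 ± 0.05. TNKS, tankyrase, which marks axin for destruction, was at -0.46 ± 0.08 on the higher of its 2 rows.

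RECK showed the largest rise in TLX+siTLX against CTL+siCTL among the pathway genes named by rule, at 1.62 ± 0.08 (adjusted p = 1.07e-06, limma). CTNNBIP1, an inhibitor that keeps beta-catenin from TCF proteins, was 0.79 ± 0.06 higher and PRICKLE1 1.08 ± 0.16 higher. Among the genes named by that rule, which averaged a log2 CPM of 0 or more, the falls were led by DAAM2 at -1.35 ± 0.30, FZD8 at -1.34 ± 0.06 and CELSR1 at -1.22 ± 0.13, followed by WNT2B at -0.59 ± 0.14. FZD8 thus stood at mean log2 CPM of 3.42 in TLX+siTLX, 4.03 in TLX+siCTL and 4.76 in CTL+siCTL. Marker levels differed between the groups too. The summed log2 CPM of the 8 luminal breast markers was 9.80 to 9.95 in TLX+siTLX, 9.48 to 9.54 in TLX+siCTL and 10.02 to 10.05 in CTL+siCTL, with TLX+siCTL lowest, as for WNT7B and RNF43. Of these markers 1 rose and 5 fell in TLX+siCTL against CTL+siCTL (median -0.57), 2 rose and 1 fell in TLX+siTLX against TLX+siCTL (median 0.29), and 2 rose and 3 fell in TLX+siTLX against CTL+siCTL (median -0.45). Over all rows the shares called were 30.1%, 23.7% and 34.6% in these comparisons. They were 56.6%, 45.8% and 63.6% of rows averaging a log2 CPM of 1 or more. The summed log2 CPM of the 7 basal B markers on a row was 12.38 to 12.45 in TLX+siTLX, 12.00 to 12.05 in TLX+siCTL and 11.80 to 11.84 in CTL+siCTL. Of these 7 markers 4 rose and 2 fell, 5 rose and 0 fell, and 5 rose and 1 fell, with the comparisons in the same order. The part of either marker list in the results above was not tested.

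The remaining lists gave mixed counts, here in the order TLX+siCTL against CTL+siCTL, TLX+siTLX against TLX+siCTL, and TLX+siTLX against CTL+siCTL. In that order 30.1%, 23.7% and 34.6% of all rows were called, and 56.6%, 45.8% and 63.6% of rows averaging a log2 CPM of 1 or more. Of the 18 ligand genes on a row, members included, 1 rose and 4 fell (median 0.04), 2 rose and 2 fell (median -0.22), and 3 rose and 5 fell (median -0.05). Most ligand genes were near the floor, so these medians rest largely on few reads. The 5 falls of the third comparison became 3 without S2, S3, S7 or S8, and the 2 falls of the second became 1 without the trend, with only the 6 libraries, and without S6 or S9. In the first comparison 2 ligand genes rose without S3. Of the 12 secreted antagonists 2 rose and 2 fell (median 0.14), 3 rose and 0 fell (median 0.19), and 4 rose and 2 fell (median 0.29), with DKK1 among the rises each time. The 2 antagonist falls of the first comparison became 0 on log2(CPM + 1) and without S4, S5 or S6, and those of the third became 0 on log2(CPM + 1), without the intensity trend, and without S1, S2, S3 or S5. Leaving out any other single library, save S1 in the first comparison, left 1 of those falls. The 2 rises of the first comparison became 1 on log2(CPM + 1) and without S3 or S4, and the second comparison had 1 fall without S6. Of the 3 genes of ligand processing and export 1 rose and 1 fell, 1 rose, and 2 rose. The fall was lost under both other scalings, without the trend, and without S1, S2, S4, S5, S6 or S8. Of the 16 TCF/LEF genes and nuclear cofactors 3 rose and 4 fell (median 0.05), 2 rose and 1 fell (median 0.13), and 5 rose and 1 fell (median 0.14). In the first comparison the 4 falls of that list became 1 with quantile normalization and without S3 or S5, 0 without S2 or S4, and 2 without the trend, with only the 6 libraries, and without S1, S6 or S7. In the third the 1 fall became 2 without S1. In the second the 2 rises became 5 without S7. In TLX+siTLX against CTL+siCTL, 4 receptors rose and 4 fell (median 0.01; 2 falls without S3 or S9), 1 of the 6 R-spondin and LGR genes fell (median -0.03), and 8 genes of the non-canonical relay rose and 2 fell (median 0.05; 4 falls with quantile normalization). Between TLX+siTLX and TLX+siCTL 2 R-spondin and LGR genes rose and 0 fell (median 0.52), and 1 rose without S1, S5, S6, S8 or S9.

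**Figure D4:**
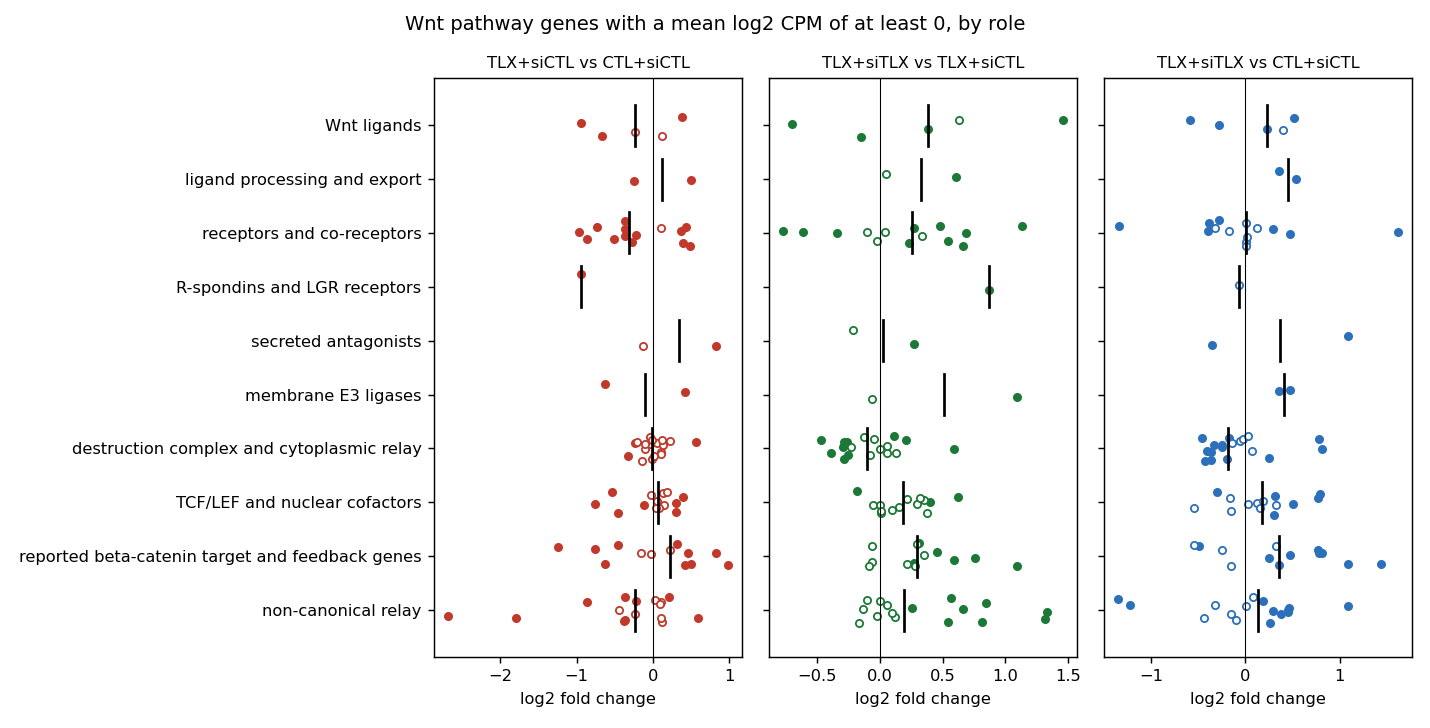
Log2 fold changes of the genes in each Wnt pathway list that averaged a log2 CPM of 0 or more, in the 3 comparisons; points are genes, filled where the adjusted p is under 0.05, black bars are list medians, and the axes differ in range. The target and feedback genes, members included, lie mostly above 0 in TLX+siTLX against TLX+siCTL and against CTL+siCTL.

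Of the 12669 genes searched, those whose values over the 9 libraries lay nearest to a member's, as the root mean square of centred log2 differences, were found for the 3 members that qualified by level, F test and a range of group means of at least 1. For WNT7B they were NRP2 (0.106), a neuropilin receptor of semaphorins and VEGF, and ARHGDIB (0.113). For DKK1 they were HTATSF1 (0.0237) and NSUN5P1 (0.0641), and for RNF43 SLC1A1 (0.0973), a glutamate transporter, and TMEM238 (0.122). NRP2 differed by 1.42 in TLX+siTLX against TLX+siCTL and by -1.06 in TLX+siCTL against CTL+siCTL. These likenesses are descriptions over 3 groups.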

How the data were processed

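The authors deposited log2 CPM values per Ensembl gene for 27548 rows and 9 libraries, made with kallisto 0.44.0, limma and edgeR on GRCh38, per the submitters' processing notes, with no roles given. The libraries came from a stranded mRNA kit, per the labels' protocols, and the strand setting of the counting is stated nowhere in the sources used here. A second part of the table deposited by the authors holds signed fold scores, p-values and false discovery rates. Columns name the group and a running number (S1 to S9) that is in no label.

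The lowest log2 value, -5.33, was read as 0 reads with a prior count of 2. Effective library sizes were recovered from steps of 1 read. Of the low values 45.7% to 47.7% lay within 0.02 of a whole read, so rebuilt reads are estimates. They were used for counting intervals and to show how few reads WNT5A, WNT7A and NR2E1 had. They also gave the WNT5A ratio, an alternative added after seeing the data.

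Comparisons used limma 3.58.1 (R 4.3.3), in 1 fit of 9 libraries, moderated along an intensity trend, and two-sided p-values were adjusted over all rows by the Benjamini-Hochberg method, with a threshold of 0.05. Its recovery was checked on simulated data. Errors are standard errors. They rest on a spread per gene shared by all groups, although the TLX+siTLX libraries differed most among themselves. Alternatives were a filter on low values, log2(CPM + 1), equal library medians, quantile normalization, no trend, only 6 libraries, and leaving out each library. Of 10 pathway lists with 121 genes, per comparison the up to 6 largest called rises and falls outside the members, among genes averaging a log2 CPM of 0 or more, are named, and CTNNB1 and NR2E1 always. Members and lists were chosen with earlier results of these data known. No list was tested. For a symbol on several rows the highest row was used. A result on 1 marker gene, and the marker sum that holds it, are not reported here.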

Additional observations from a re-analysis of the deposited data

How the results depend on the processing

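No paired analysis was possible because the columns carry no replicate number of the labels. The number of members called in TLX+siTLX against TLX+siCTL was 3 with only the 6 libraries of the comparison, and 3 to 4 when each library was left out in turn, against 5. In TLX+siCTL against CTL+siCTL leaving out each library gave 5 to 7 members and in TLX+siTLX against CTL+siCTL 6 to 7. Over all rows leaving out each library gave 7033 to 8664 calls in TLX+siCTL against CTL+siCTL, 5219 to 6241 calls in TLX+siTLX against TLX+siCTL and 8312 to 9209 calls in TLX+siTLX against CTL+siCTL. The calls of WNT7B and DKK1 in all 3 comparisons held in every alternative run, as did those of WNT5B and ZNRF3 against CTL+siCTL, AXIN2 in TLX+siTLX against CTL+siCTL and RNF43 in TLX+siTLX against TLX+siCTL. Those of WNT5A against CTL+siCTL held in every alternative except the filter at a mean log2 CPM of 1, which left WNT5A out. The calls of LEF1, of AXIN2 and WNT5B in TLX+siTLX against TLX+siCTL, and of RNF43 against CTL+siCTL did not hold in all. The cause was not tested, though fewer libraries enter some of these fits. Depth limits WNT7A and WNT5A, which had few reads. Single libraries were not tested as outliers.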

Other observations

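Some lower-level members of the pathway lists also passed the test, and these were singled out after their values were seen. SOST, sclerostin, an antagonist of the LRP co-receptors, had mean log2 CPM of 0.57 in TLX+siTLX, -0.95 in TLX+siCTL and -1.90 in CTL+siCTL. Its log2 fold change was 1.51 ± 0.26 (SE) in TLX+siTLX against TLX+siCTL (adjusted p = 0.00314, limma) and 2.47 ± 0.26 in TLX+siTLX against CTL+siCTL (adjusted p = 8.77e-05). In TLX+siCTL against CTL+siCTL it was 0.96 ± 0.26 (adjusted p = 0.0229), a call lost on log2(CPM + 1) and without S3, S4 or S5 (adjusted p up to 0.0708). The ligand gene WNT10A had means of -1.90 in TLX+siTLX, -1.77 in TLX+siCTL and -0.03 in CTL+siCTL, and a log2 fold change of -1.74 ± 0.32 in TLX+siCTL against CTL+siCTL (adjusted p = 0.00315, limma). RSPO3, an R-spondin that shields Frizzled receptors from RNF43 and ZNRF3, had means of -2.03, -1.57 and 0.30 in the same groups and a log2 fold change of -1.88 ± 0.35 in TLX+siCTL against CTL+siCTL (adjusted p = 0.00311). Neither WNT10A (adjusted p = 0.863) nor RSPO3 (adjusted p = 0.448) passed the test in TLX+siTLX against TLX+siCTL.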
